A study of Homo sapiens with 6 samples.

Results

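The genes described here encode proteins that form oligomers or amyloid, together with their relatives and the enzymes that release amyloid peptide. The 9 symbols were chosen as genes of proteins whose oligomers the compound anle138b is known to bind, or of synuclein relatives, with the secretases and paralog of APP among them: SNCB, SNCG, SNCAIP, MAPT, PRNP, APP, APLP2, BACE1 and BACE2. All 9 were found among the 60617 gene identifiers of the count files, and 7 had enough counts to enter the test. RNA was sequenced from 6 xenograft tumors of the established melanoma cell line WM983-B, of human origin, in 2 groups. The 3 anle138b tumors came from hosts given this diphenyl-pyrazole small molecule systemically. The 3 untreated tumors are labeled as no treatment, and that label does not say whether a vehicle was given. The labels used here state no dose, duration or host strain, and all tumors stem from 1 cell line.

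Synucleins are small presynaptic proteins, and the alpha form is the main constituent of Lewy bodies and the target named in the series title. Beta- and gamma-synuclein, from SNCB and SNCG, are its close relatives, and SNCAIP encodes synphilin, a partner of alpha-synuclein found in Lewy bodies. APP is the transmembrane precursor of amyloid beta and APLP2 its nearest ubiquitous paralog. BACE1 is the beta-secretase that makes the first cut in APP, while its homolog BACE2 is prominent in pigment cells, where it processes the melanosomal amyloid protein PMEL. MAPT encodes tau, which binds microtubules and forms filaments in Alzheimer disease, and PRNP encodes the cellular prion protein, anchored at the cell surface.

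The sequences just upstream of 4 start sites are shown because the genes behind them mark the ends of the range seen here: APP was the most abundant of the 9 genes, APLP2 is its paralog at a steady intermediate level, and SNCAIP varied most between tumors and has a pair of start sites in the table, both shown. Each run is the 250 bases before a RefSeq start site (GRCh38.p14), 5′ to 3′ on the strand of the gene. Capitals mark the GC box GGGCGG and the TATA box TATAAA on either strand.
APP, chr21:26171129-26171378, minus strand: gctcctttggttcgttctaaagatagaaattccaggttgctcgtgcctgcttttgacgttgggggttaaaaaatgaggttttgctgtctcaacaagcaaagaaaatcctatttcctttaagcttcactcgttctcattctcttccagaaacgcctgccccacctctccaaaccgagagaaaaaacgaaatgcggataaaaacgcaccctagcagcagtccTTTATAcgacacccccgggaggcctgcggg
APLP2, chr11:130070318-130070567, plus strand: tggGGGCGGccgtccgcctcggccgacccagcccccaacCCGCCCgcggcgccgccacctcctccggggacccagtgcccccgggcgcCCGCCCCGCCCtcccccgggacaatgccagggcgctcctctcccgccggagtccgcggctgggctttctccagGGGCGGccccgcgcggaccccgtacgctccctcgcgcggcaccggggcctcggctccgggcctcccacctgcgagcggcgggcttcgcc
SNCAIP, chr5:122311987-122312236, plus strand: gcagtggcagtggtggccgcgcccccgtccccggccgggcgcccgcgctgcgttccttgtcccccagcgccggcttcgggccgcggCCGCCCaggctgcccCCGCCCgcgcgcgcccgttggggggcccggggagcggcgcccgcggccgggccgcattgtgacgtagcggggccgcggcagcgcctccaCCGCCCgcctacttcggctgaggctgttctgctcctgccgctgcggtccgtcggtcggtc
SNCAIP, chr5:122390839-122391088, plus strand: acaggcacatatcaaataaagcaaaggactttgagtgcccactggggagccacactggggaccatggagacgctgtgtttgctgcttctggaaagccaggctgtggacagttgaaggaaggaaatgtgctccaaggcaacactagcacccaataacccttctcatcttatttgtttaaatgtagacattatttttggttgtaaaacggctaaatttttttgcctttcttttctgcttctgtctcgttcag

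The APP window held 47.6% G and C, 12 CpG pairs and 1 TATA box, read on the reverse strand. A second APP start in the table, not printed, had a window with 78.8% G and C, 34 CpG pairs and 0 TATA boxes. A TATA box is in 10.7% of the 35116 RefSeq upstream windows of the same length. The APLP2 window held 82.4% G and C, 37 CpG pairs and 5 GC boxes, of which a pair overlap by a base, and 42.6% of all windows hold at least 1 GC box. The first SNCAIP window had 41 CpG pairs and 3 GC boxes, and the second had 3 CpG pairs and 0 GC boxes. The median window had 58.0% G and C and 11 CpG pairs. The E-boxes CACGTG and CATGTG, searched on both strands, were in 0 of these 4 windows and in 6.34% and 9.42% of all windows. Upstream windows were matched for 6 of the 9 genes, the other three being MAPT, PRNP and BACE2. Counts were summed per gene, so they do not show which start site was used.

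Depth was 12400782 to 27599159 counts per tumor, and 3 counts stand for 0.106 to 0.239 CPM by tumor, CPM being the count scaled to the library's effective total. The titles fall into a 4-library set with 2 tumors of each group and a 2-library set with 1 of each, the third replicate of either group, and the first principal component, with 53.8% of the variance, separated the sets. The labels do not explain the sets. In the 4-library set the titles of treated tumors carry an R and those of untreated tumors an L, so whatever these letters mark cannot be told apart from treatment there. The melanocytic genes PMEL and SOX10, named after their values were seen, had 8230 to 13400 CPM and 425 to 527 CPM over the 6 tumors. Whether each tumor had its own host animal is not stated, so the p-values rest on the spread among libraries, which may be technical. In bulk tumor RNA fewer cells of a type and less RNA per cell cannot be told apart.

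Levels of different genes were compared as TMM-scaled CPM per kilobase of exon. APP led with 104.1 ± 5.26 CPM per kilobase (SD, n = 6), above the mean of 98.5% of the 13687 protein-coding genes tested. PRNP followed at 57.4 ± 17.8 and BACE2 at 38.7 ± 3.13 CPM per kilobase, and the ranges of these 2 genes over the tumors overlapped. APLP2 stood at 13.5 ± 0.662 CPM per kilobase, clear of BACE2 above it. BACE1 had 1.52 ± 0.405 and MAPT 0.772 ± 0.225 CPM per kilobase. The 3 lowest genes were SNCB at 0.291 ± 0.161, SNCAIP at 0.184 ± 0.253 and SNCG at 0.178 ± 0.0936 CPM per kilobase, whose ranges overlapped. With the longest transcript as length, BACE1 and MAPT moved together at 1.73 and 1.69, and SNCAIP and SNCG changed places.

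**Figure D1:**
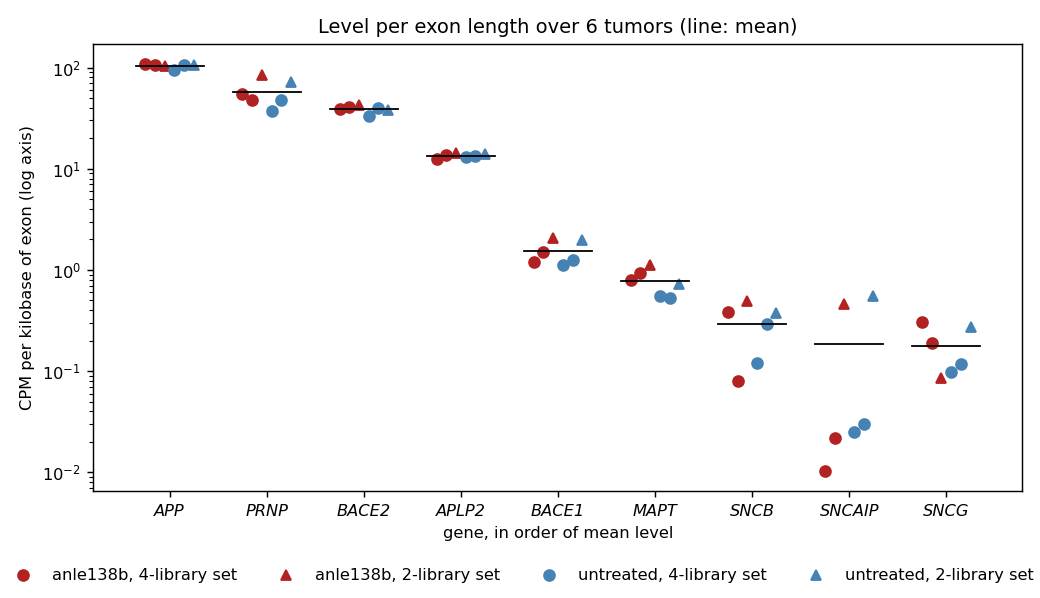
Level of each of the 9 genes in each of the 6 tumors, in TMM-scaled CPM per kilobase of exon on a log axis, with genes in order of their mean (black line). Red marks anle138b and blue untreated tumors, circles the 4-library and triangles the 2-library set; APP lies near 104.1 in all tumors, whereas SNCAIP splits into a high pair and a low group of 4.

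The pair of beta-secretase homologs was expressed very unequally. Per kilobase, BACE2 exceeded BACE1 by a ratio of 32.1, 26.8 and 20.4 in the anle138b tumors and of 29.3, 31.5 and 19.4 in the untreated tumors. The mean ratio was 26.4 ± 5.88 with anle138b and 26.8 ± 6.44 without treatment (SD, n = 3 each), and the smallest ratio of either group was in the 2-library set. APP exceeded APLP2 by a ratio of 7.90 ± 0.662 in anle138b tumors and 7.57 ± 0.348 in untreated tumors. These ratios of levels depend on the exon length used. With the longest transcript the means over 6 tumors were 25.7 for BACE2 over BACE1 and 6.92 for APP over APLP2. The ratio of BACE2 over BACE1 is also uncertain because 43.3% of the BACE1 exon bases are shared with genes on the opposite strand.

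The question put to these genes was whether their RNA differed after a compound that binds the proteins some of them encode. By the edgeR quasi-likelihood test with Benjamini-Hochberg adjustment over all 20423 genes tested, 0 of the 7 tested genes were called. Of all genes 1.05% were called in either direction, so 0 of 7 does not set these genes apart. At an unadjusted p under 0.05 there were 2 of the 7, MAPT and PRNP, and 1734 of all genes. All 7 fitted log2 fold changes lay above 0, from 0.01 to 0.65 with a median of 0.14, while 47.9% of all genes did and their median was -0.01. SNCAIP and SNCG, which were not tested, had -0.31 and -0.04 in a fit with no low-count filter. The levels of the 7 genes were correlated over the tumors, by up to 0.896, so their signs are not independent results.

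**Figure D2:**
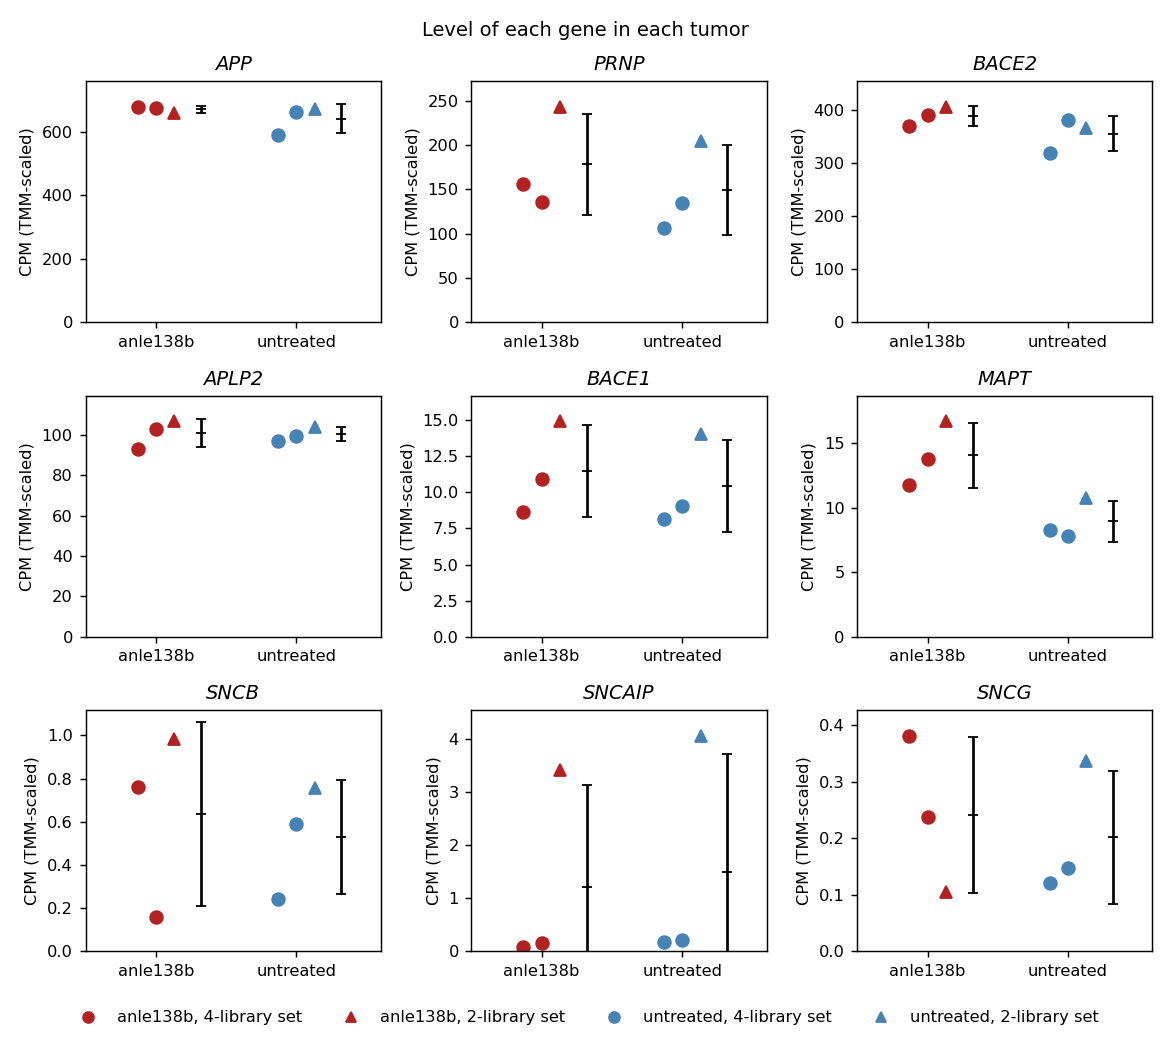
TMM-scaled CPM of each gene by tumor, anle138b (red) left of untreated (blue), circles for the 4-library and triangles for the 2-library set, with mean and SD (n = 3, bars cut at 0). In MAPT each treated tumor, 11.7 to 16.7 CPM, lies above each untreated one, 7.83 to 10.8 CPM, and in the other 8 panels the groups overlap.

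The precursor genes were the steadiest. APP (ENSG00000142192, chromosome 21, 25880550 to 26171128, GRCh38) had 8915, 8492 and 18774 counts in the anle138b tumors, or 680, 676 and 660 CPM, against 9750, 8984 and 15989 counts, or 591, 663 and 674 CPM, in the untreated tumors. The groups overlapped, and the highest tumor exceeded the lowest by 1.15-fold. The fitted change was 1.05-fold with a 95% interval of 0.887 to 1.23 (log2 0.06 ± 0.11, SE; adjusted p = 0.961). APLP2 (chromosome 11, 130068147 to 130144811) had 93.2, 102.8 and 106.7 CPM with anle138b, against 97.2, 99.5 and 104.1 CPM without. These values also overlapped, and the fold was 1.01 with an interval of 0.873 to 1.16 (adjusted p = 0.994). APLP2 had the narrowest interval of the 7 tested genes.

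The secretase homologs overlapped between the groups as well. BACE2 (chromosome 21, 41167801 to 41282518) had 370, 391 and 407 CPM in the anle138b tumors, against 319, 383 and 366 CPM in the untreated tumors. Its groups overlapped, with a fold of 1.09 and an interval of 0.928 to 1.29 (adjusted p = 0.885). BACE1 (chromosome 11, 117285207 to 117316259) was read with 113, 137 and 424 counts in the treated tumors, or 8.62, 10.9 and 14.9 CPM, against 134, 123 and 334 counts, or 8.13, 9.08 and 14.1 CPM, in the untreated ones. In both groups the tumor of the 2-library set was the highest, and the fold was 1.11 with an interval of 0.877 to 1.39 (adjusted p = 0.925). Of the BACE1 exon bases, 43.3% are shared with exons of BACE1-AS and RNF214 on the opposite strand, and the library kit does not mark strand, so BACE1 counts are uncertain. BACE1-AS itself had 38, 43 and 89 counts with anle138b and 48, 33 and 97 without, a log2 change of -0.02 ± 0.23 (adjusted p = 0.997).

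MAPT (ENSG00000186868, chromosome 17, 45894382 to 46028334) showed the clearest separation of the 9. The anle138b tumors had 154, 173 and 475 counts, or 11.7, 13.8 and 16.7 CPM, against 137, 106 and 256 counts, or 8.31, 7.83 and 10.8 CPM, in the untreated tumors. Every treated tumor thus lay above every untreated tumor, an arrangement that 4.02% of all tested genes shared. The means were 14.1 ± 2.5 CPM with anle138b and 8.98 ± 1.59 CPM without (SD, n = 3 each), and the fitted log2 change of 0.65 ± 0.14, 1.57-fold with an interval of 1.26 to 1.94, missed the threshold (adjusted p = 0.0689, edgeR). The difference of log2 CPM was 0.65 in the 4-library set and 0.62 in the 2-library pair. MAPT was called by DESeq2 (adjusted p = 0.0213, with 2.44% of genes called), while edgeR without the term for the naming set gave adjusted p = 0.832. The call thus rests on the model chosen. With no low-count filter edgeR also called it (adjusted p = 0.0145, with 1.62% called). Adjusted p-values of that fit cannot be set beside those of the main fit, so it lends the call no support.

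PRNP (chromosome 20, 4686236 to 4701590) had 156, 136 and 243 CPM in the anle138b tumors, against 107, 135 and 205 CPM in the untreated tumors. The groups overlapped because the 2-library tumors, 243 and 205 CPM, stood above the other 4, whereas within either set each treated tumor was the higher. The fold was 1.20 with an interval of 1.01 to 1.43 before adjustment, and the test over all genes was not passed (log2 0.26 ± 0.11; adjusted p = 0.559).

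The synuclein relatives were read with few counts. SNCB (chromosome 5, 176620084 to 176630556) had 10, 2 and 28 counts with anle138b, against 4, 8 and 18 counts without. These groups overlapped and the fold of 1.23 had an interval of 0.574 to 2.63 (adjusted p = 0.961), which holds a 2-fold rise. SNCG (chromosome 10, 86958618 to 86963260) had 5, 3 and 3 counts in treated tumors, against 2, 2 and 8 counts in untreated tumors, and did not enter the test. Its level was 0.106 to 0.381 CPM over the 6 tumors, near that of 3 counts. SNCAIP (chromosome 5, 122311354 to 122464219) was likewise not tested: it had 1, 2 and 97 counts with anle138b, against 3, 3 and 96 without. The summed counts, 100 in treated and 102 in untreated tumors, gave a ratio of CPM of 0.974 with an exact 95% interval of 0.732 to 1.30, which covers counting error only.

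**Figure D3:**
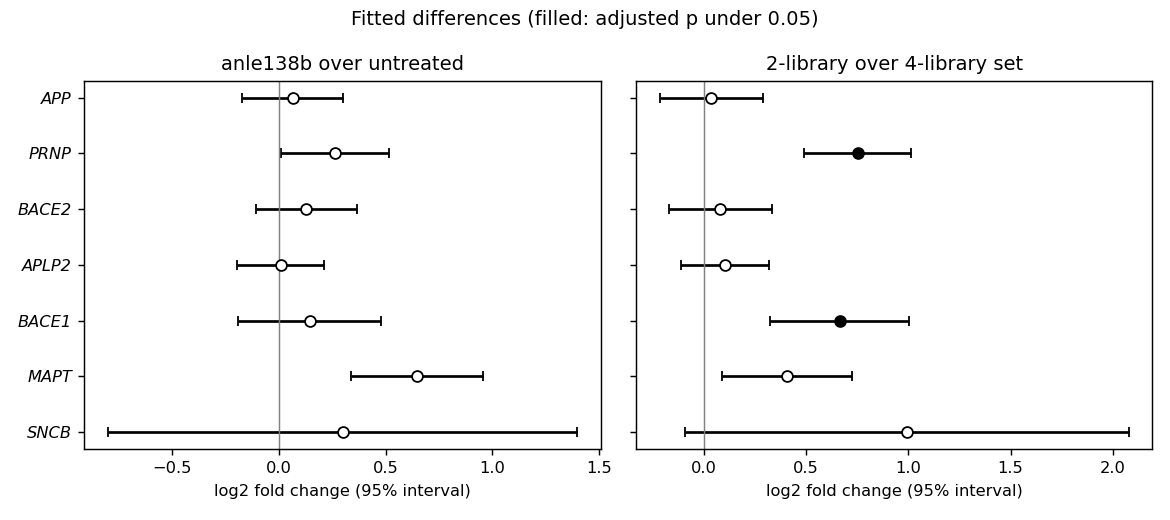
Fitted log2 fold changes of the 7 tested genes with 95% intervals not adjusted for the number of genes: left, anle138b over untreated; right, the 2-library over the 4-library set. No filled point is on the left, where MAPT lies farthest from 0 at 0.65; PRNP at 0.75 and BACE1 at 0.67 are filled on the right.

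The same genes were compared between the naming sets. PRNP was higher in the 2-library tumors by a log2 difference of 0.75 ± 0.12 (adjusted p = 0.00315, edgeR quasi-likelihood test) and BACE1 by 0.67 ± 0.15 (adjusted p = 0.019). Thus 2 of the 7 tested genes were raised and 0 lowered, where 8.32% of all tested genes were raised and 7.14% lowered. Both genes had the pair of 2-library tumors above all 4 others, as did 18.7% of all genes. Leaving out anle138b tumor 1 or 3, or untreated tumor 1 or 3, ended the BACE1 call (adjusted p = 0.0685, 0.0607, 0.0557 and 0.156), with log2 differences of 0.59, 0.72, 0.62 and 0.63. PRNP stayed called without any 1 library. APP, APLP2 and BACE2 differed by 0.04, 0.11 and 0.08 on the log2 scale (adjusted p = 0.85, 0.484 and 0.653). SNCB and MAPT had 0.99 ± 0.48 and 0.41 ± 0.14, which did not pass (adjusted p = 0.19 and 0.0794). RNF214 and BACE1-AS, which overlap BACE1, differed by 0.18 and 0.31 (adjusted p = 0.545 and 0.397).

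SNCAIP was read mainly in the 2-library tumors. It had 97 and 96 counts in the 2-library tumors, 3.41 CPM in the anle138b and 4.05 CPM in the untreated one, against 1, 2, 3 and 3 counts in the 4-library tumors, 0.0762 to 0.222 CPM. The sums of 193 and 9 counts gave a CPM ratio of 22.9 with an exact 95% interval of 11.8 to 50.9, which covers counting error only and not the spread among tumors. It entered the fit only with no low-count filter or without 1 of the 4-library tumors. The adjusted p-values of the edgeR fit with no filter cannot be set beside those of the main fit. Between the sets that of PRNP went from 0.00315 to 1.08e-10, at log2 differences of 0.75 and 0.78. With no filter the log2 difference of SNCAIP was 4.51 ± 0.39 (adjusted p = 2.24e-28, edgeR, where 8.38% of genes were raised). In the 4 fits without 1 of the 4-library tumors the difference was 4.30 to 4.61 (adjusted p = 4.67e-07 to 0.00055), but there the gene passed the filter only through the tumors where it was high, so these fits lend no support. In the fit with no filter its treatment difference was -0.31 ± 0.38 (adjusted p = 0.923).

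**Figure D4:**
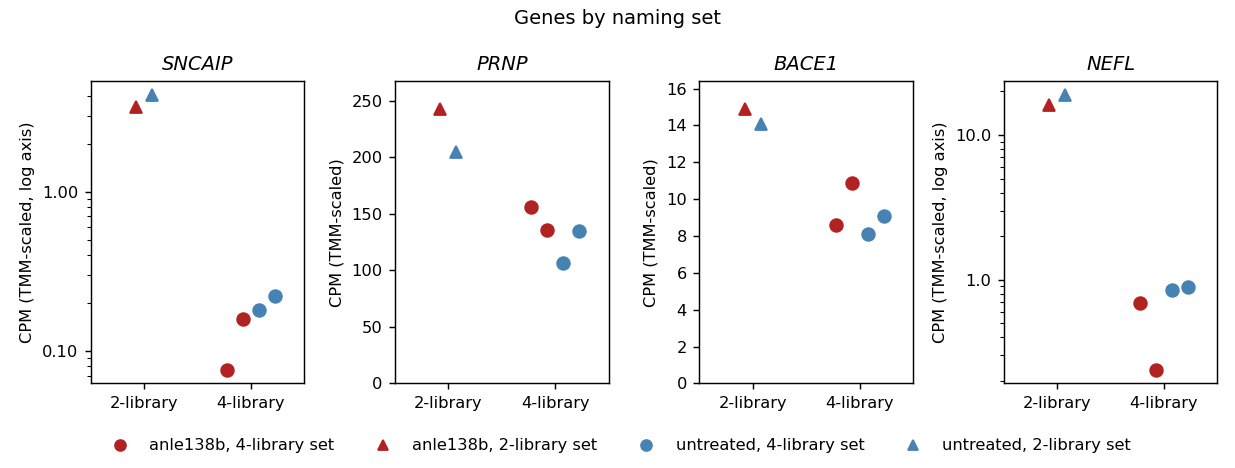
TMM-scaled CPM in the 2-library and 4-library tumors for SNCAIP and the neurofilament gene NEFL (log axes) and for PRNP and BACE1 (axes from 0), anle138b in red and untreated in blue. In all 4 panels the 2-library pair lies above the 4-library tumors, for SNCAIP at 3.41 and 4.05 CPM against at most 0.222.

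Markers of other cells were set beside this difference, to be read against the 8.32% of all genes raised and 7.14% lowered between sets. Of 15 neuronal markers 6 were tested, and SYP, SYT1 and NEFL, 3 in all, were raised in the 2-library set. The summed level of all 15 was 63.6 to 70.8 CPM there against 32.6 to 43.8 CPM in the 4-library set, mostly from GAD1, SYP and, in the 2-library tumors, NEFL. The other tested neuronal markers were not called. GAD1 and CHGA differed by 0.29 and 0.25 and RBFOX3 by -0.88 on the log2 scale (adjusted p = 0.102, 0.592 and 0.14, edgeR). NEFL, a neurofilament light chain, had 456 and 450 counts in the 2-library tumors against 3 to 14 in the others (log2 difference 4.71, adjusted p = 7.05e-06). The neuronal genes INA, ELAVL3 and STMN2 had at most 1, 5 and 10 counts in any tumor, and 0 of the 15 were at 0 in all 6. Of 9 Schwann cell markers, many of which melanocytic cells also express, 8 were tested and 4 were raised, with a summed level of 1092 to 1106 CPM in the 2-library set against 777 to 929 CPM in the 4-library set. Of 8 skeletal muscle markers 3 were tested and 2 were lowered, MYH1 by a log2 difference of -1.49 and MYH2 by -1.29 (adjusted p = 0.00343 and 0.00563). Their list summed to 16.3 to 17.7 CPM in the 2-library set against 30.8 to 71.9 CPM in the 4-library set. The 71.9 CPM was that of anle138b tumor 2, with 131 CKM, 77 TNNT3 and 46 TNNI2 counts. Other tumors had at most 11, 5 and 4 counts of these genes. Of the 10 melanoma lineage markers MLANA, TYRP1 and S100B, 3 in all, were raised, while the list summed to 14105 to 15695 CPM in the 2-library set against 15567 to 19176 CPM in the 4-library set. The part of such cells in the levels of SNCAIP, PRNP and BACE1 was not tested, nor was that of mouse host reads, whose handling by the authors is not stated in the labels used here. Adipocyte markers, of interest because fat cells express SNCG, summed to 52.2 to 53.0 CPM in the 2-library set and 18.8 to 29.9 CPM in the 4-library set, mostly from LPL, and ADIPOQ had at most 2 counts.

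By treatment, 0 of the 6 neuronal, 8 Schwann cell, 5 adipocyte, 3 skeletal muscle and 10 melanoma lineage markers tested were called by edgeR over all genes. The neuronal sum was 39.1 to 70.8 CPM with anle138b and 32.6 to 63.6 CPM without. The Schwann cell sum was 829 to 1092 CPM with anle138b and 777 to 1106 CPM without. The melanoma lineage sum was 15567 to 19176 CPM with anle138b and 14105 to 18423 CPM without, mostly from PMEL. Its 10 genes had log2 changes from -0.46 for S100B to 1.42 for TYRP1, with a median of 0.01. TYRP1 had 491, 491 and 856 CPM with anle138b against 145, 104 and 699 CPM without, which overlapped (log2 1.42 ± 0.30, adjusted p = 0.0692, edgeR). DCT had 0.42 ± 0.12 (adjusted p = 0.228, edgeR). The adipocyte sum was 18.8 to 52.2 CPM with anle138b and 25.2 to 53.0 CPM without. The skeletal muscle sum was 16.3 to 71.9 CPM with anle138b, the highest value being that of anle138b tumor 2 alone, and 17.7 to 42.2 CPM without. The 6 tested neuronal markers had log2 changes of -0.42 for NEFL, -0.18 for CHGA, 0.24 for SYP, 0.41 for SYT1, 0.42 for GAD1 and 0.49 for RBFOX3, with a median of 0.32, beside the 0.65 of MAPT. The part of neuronal cells in the MAPT difference was not tested.

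Whether the treatment difference varied between the sets was tested as an interaction. The edgeR test called 0 of the 7 genes and 0% of all genes, and the smallest adjusted p among the 7 was 0.933. At an unadjusted p under 0.05 there were 0 of the 7 and 1345 of all genes. The test could miss sizeable differences, as the 2-library set has 1 tumor of each group. The 95% interval of the fold between sets was 0.626 to 1.54 for MAPT and 0.218 to 5.76 for SNCB. DESeq2 called 31 genes, with 0 of the 7 among them.

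Around these genes, 139 others in 9 lists were measured: partners, processing enzymes, kinases and other amyloid proteins. Of the 124 tested, 1 was raised and 0 were lowered, a share close to the 1.05% called over all genes, and their median log2 change was -0.01, as over all genes. The raised gene was GRK5, a G protein-coupled receptor kinase that can phosphorylate alpha-synuclein. It had 333, 327 and 717 counts in the anle138b tumors, or 25.4, 26.0 and 25.2 CPM, against 191, 162 and 325 counts, or 11.6, 12.0 and 13.7 CPM, in the untreated tumors. Every treated tumor lay above every untreated one, as in 4.02% of all tested genes. The means were 25.5 ± 0.421 CPM with anle138b and 12.4 ± 1.13 CPM without (SD, n = 3 each). GRK5 rose by 1.04 ± 0.12 on the log2 scale (adjusted p = 0.00345, edgeR quasi-likelihood test). The call held without any 1 library (adjusted p up to 0.0287) and was lost without the set term (adjusted p = 0.0748). The other 17 tested genes of its list, kinases, ubiquitin ligases and vesicle partners of synucleins, were not called; PLK2, another synuclein kinase, had a change of 0.25 ± 0.13 (adjusted p = 0.69), and the list's median was -0.03. Between the naming sets 17 of the 124 genes were raised and 14 lowered, where 8.32% and 7.14% of all genes were.

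**Figure D5:**
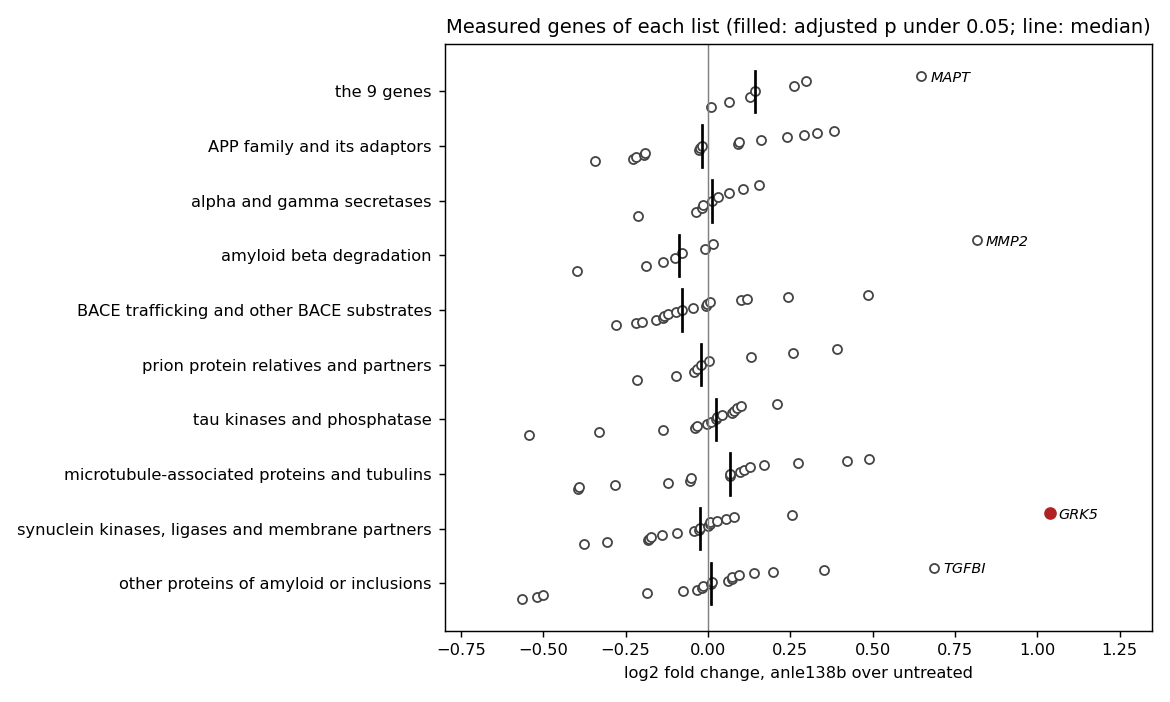
Log2 fold change, anle138b over untreated, of each tested gene in the 9 related lists and among the 9 genes themselves; open circles were not called, the filled circle was, and black lines are medians. GRK5 at 1.04 is the single filled point, and every median lies between -0.09 and 0.14.

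In the APP family and its adaptors, 0 of 15 tested genes were called and the median was -0.02, with APBB2, an adaptor that binds the tail of APP, at 0.33 ± 0.11 and the endocytic adaptor NUMBL at -0.34 ± 0.16 (adjusted p = 0.34 and 0.613). All 9 alpha- and gamma-secretase genes were tested and 0 were called. The catalytic gamma-secretase subunit PSEN2 had -0.21 ± 0.11 and the sheddase ADAM9 0.16 ± 0.10 (adjusted p = 0.724 and 0.793). Of 8 tested genes of amyloid beta degradation 0 passed. Among them MMP2, a matrix metalloproteinase, had 58.5, 78.5 and 69.6 CPM in treated against 52.0, 40.2 and 28.1 CPM in untreated tumors, a log2 change of 0.82 ± 0.18 (adjusted p = 0.0815). MME, the gene of neprilysin, had -0.40 ± 0.14 (adjusted p = 0.39).

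Of 17 tested genes of BACE trafficking and other BACE substrates 0 were called, with a median of -0.08. The sialyltransferase gene ST6GAL1 and the Notch ligand gene JAG1, both encoding BACE1 substrates, had 0.24 ± 0.10 and -0.28 ± 0.12 (adjusted p = 0.478 and 0.527). PMEL, the pigment cell substrate of BACE2, had 13070, 9547 and 9079 CPM in anle138b tumors and 12852, 13400 and 8230 CPM in untreated tumors, which overlapped (log2 -0.10). Among prion protein relatives and partners 0 of 9 passed. LRP8, a lipoprotein receptor of the reelin pathway, came nearest at 0.39 ± 0.09 (adjusted p = 0.0815, edgeR). Every treated tumor, 140 to 176 CPM, lay above every untreated one, 103 to 137 CPM, as in 4.02% of all tested genes. CAV1, the gene of caveolin, had 0.26 ± 0.09 (adjusted p = 0.407).

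The enzymes and relatives of tau gave no call either, with 0 of 15 tau kinase and phosphatase genes and 0 of 15 microtubule-associated protein and tubulin genes, at medians of 0.02 and 0.07. PPP2R2B, a regulatory subunit of protein phosphatase, and CDK5R1, the activator of the tau kinase CDK5, had -0.54 ± 0.22 and -0.33 ± 0.16 (adjusted p = 0.504 and 0.662). The beta-tubulin gene TUBB2B and the dendritic microtubule gene MAP2 had 0.49 ± 0.20 and 0.27 ± 0.13 (adjusted p = 0.504 and 0.618). Of 18 tested genes of other amyloid or inclusion proteins 0 were called. TGFBI, whose protein forms corneal amyloid when mutated, had 561, 470 and 951 CPM in treated against 435, 395 and 350 CPM in untreated tumors (log2 0.69 ± 0.21, adjusted p = 0.247). APOE, the lipid carrier bound up with amyloid deposition, had 436, 263 and 355 CPM in treated against 554, 586 and 433 CPM in untreated tumors, groups that overlapped at one tumor (log2 -0.57 ± 0.18, adjusted p = 0.271).

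The protein-coding genes whose log2 CPM followed 3 of the 9 most closely over the 6 tumors were looked up among 12434 candidates, as a description in which the tumors share their sets and depth. For MAPT these were RAB4A, LPP and GULP1, with Pearson correlations of 0.996, 0.996 and 0.991. LPP had 184, 208 and 253 CPM with anle138b and 121, 122 and 161 CPM without, the same order of groups and sets as MAPT. For PRNP they were FNDC10, MRPL32 and POTEE, each at 0.993, and for BACE2 they were IMMP1L, ZNF740 and MLLT3, at 0.967, 0.966 and 0.962. Among the 7 tested genes themselves the closest pairs were APLP2 with BACE1 at 0.896 and PRNP with BACE1 at 0.893.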

How the data were processed

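RNA was extracted with TRIzol and made into libraries with a TruSeq v2 kit, per the labels' protocols. The authors deposited raw counts per Ensembl gene, in a file for each tumor. The submitters' processing notes name featureCounts 1.5.0-p1, STAR 2.5.2a, bcl2fastq 2.17.1.14 and hg38. How strand, shared reads and mouse reads were handled is not given in the sources used here. Positions, exon lengths and symbols came from GENCODE 29 (GRCh38), and all 198 list entries matched an identifier. Counts were tested with edgeR 4.0.16 in R 4.3.3: filterByExpr by group (minimum count 10, total 15), TMM scaling, and the quasi-likelihood F test of a model with terms for naming set and treatment (residual degrees of freedom 3), Benjamini-Hochberg at 0.05. Standard errors were derived from the F statistic, and 95% intervals use its degrees of freedom. The interaction fit had 2 residual degrees of freedom. The log2 CPM used a prior count of 2. Replicate libraries of a group differed by more than sampling noise. The chi-square per degree of freedom was 10.5 and 10.7 within the 4-library set, and 25.2 to 58.8 for pairs across the naming sets. Alternatives were no set term, other scalings, filters, DESeq2 1.42.0, limma voom 3.58.1, the 4-library set alone and each library left out. The genes and lists were chosen with earlier results of these data known. Named genes were all 9, and of each further list those called and the 2 with the smallest p, plus the 3 protein-coding genes most correlated with each of MAPT, PRNP and BACE2; any other marker gene was named after its values were seen. The gene of alpha-synuclein itself is not reported here.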

Additional observations from a re-analysis of the deposited data

How the results depend on the processing

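Depth limits the low genes most: for SNCB, SNCG and SNCAIP few counts were read. The count of the 9 genes called for treatment was 0 under 13 alternatives and 1, MAPT, with no low-count filter and with DESeq2. The adjusted p-values with no filter cannot be set beside those of the main fit. The log2 changes of APP, PRNP, BACE1, BACE2 and MAPT kept their sign under all 15 alternatives. For APLP2 the sign turned, near 0, with upper-quartile scaling (-0.0054), library size alone (-0.0040), the 4-library set alone (-0.0043) and with a library left out (-0.031 to 0.047), and for SNCB the value with a library left out was -0.074 to 0.59. The set difference of APP was -0.019 to 0.11 with a library left out. Genes of the 9 called between sets numbered 1 to 3 with a library left out, counting SNCAIP, which entered 4 of these fits only through the tumors where it was high. Over all genes the treatment calls numbered 9 with no set term, 754 with no low-count filter, 412 with DESeq2, 92 in the 4-library set alone and 89 to 392 with a library left out. The set calls numbered 6250 with no low-count filter and 993 to 5960 with a library left out. Interaction calls numbered 1 with upper-quartile scaling, 11 with library size alone, 262 with no low-count filter, 31 with DESeq2 and 24 to 436 with a library of the 4-library set left out; the cause was not tested. The interaction could not be fitted without a 2-library tumor. No paired analysis was possible because replicate numbers follow listing order.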
